A study of Mus musculus with 15 samples.

Results

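The 48 genes described here are homeobox genes that lie outside the Hox clusters: 6 Dlx, 4 Six-family, 8 Lhx, 8 Nkx and 6 Irx genes, and 16 genes of the Pitx, Msx, Barhl, Otx, Pou4f, En, Emx and Gsx subfamilies. They were taken by gene symbol from a table of 22035 genes that holds H3K27me3 and RNA, and from a table of H3K4me3 at start sites. All 48 were found in both. Each encodes a transcription factor that binds DNA through a homeodomain and acts in the patterning of the embryo, for example in forebrain, eye, limb, heart, gut or sensory neurons. Embryonic stem (ES) cells have not taken up any of these fates, and genes of this kind are known in them as targets of Polycomb repressive complex 2, which trimethylates lysine 27 of histone H3 (H3K27me3) around silent developmental start sites. Trimethylation of lysine 4 (H3K4me3) marks active start sites. Where both marks sit on 1 start site, it is called bivalent, a state described for many developmental genes of ES cells. H3K9me3 is the mark of constitutive heterochromatin and of silenced repeats.

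All 15 libraries came from TT2, a male, wild-type mouse ES cell line of a C57BL/6 x CBA cross, made from the inner cell mass of the blastocyst. Cells were sorted into nuclear isolation buffer and profiled by native ChIP-seq, in which chromatin is not fixed before immunoprecipitation, in a study of how few cells such a profile needs. H3K27me3 was measured in 1000, 10000 and 100000 cells, and H3K4me3 in 5000, 10000 and 100000 cells, with 1 library each. H3K9me3 was measured in 1000 cells (libraries a, b and c), 10000, 100000 and 1000000 cells. The immunoprecipitation of all histone H3 (panH3) had 2 libraries of 1000 cells, a and b. RNA depleted of ribosomal RNA was sequenced from 1000 cells in 1 library. Every group is the same cell line, so the cell number is the condition that differs within a mark. With 1 library for each cell number, differences in H3K27me3, H3K4me3 and RNA have no replicate check, and no p-value is given for them.

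Values are RPKM, reads per kilobase of window and per 1000000 reads. The H3K27me3 libraries of 1000, 10000 and 100000 cells held 13.04, 15.31 and 19.67 M reads (M standing for 1000000) as recovered from the steps of the values, so 1 RPKM over a 2 kb window stands for 26.1, 30.6 and 39.3 reads. The H3K4me3 libraries of 5000 and 10000 cells held only 1.86 and 1.07 M reads, where 1 read in a 1 kb window is worth 0.539 and 0.938 RPKM. The library of 100000 cells held 16.6 M reads. Intervals given below are exact 95% Poisson intervals on reads and cover counting error only. In the RNA library all 10 ES cell markers were above 1 RPKM, at 15.01 to 222 RPKM. Of other cell types, 1 of 10 fibroblast feeder markers reached 1 RPKM (Thy1, 1.79), with Col3a1, Postn, Lum and Dcn listed at 0. Neural markers reached it in 2 of 9 measured (Tubb3, 25.7, and Olig2, 2.57), with Neurog2 and Dcx listed at 0. The same was true of 4 of 9 primitive endoderm markers, led by Sparc at 33.7 RPKM with Foxa2 at 0.04, of 0 of 7 mesoderm markers, and of 2 of 5 measured trophoblast markers, Krt8 and Krt18. The part of such cells in the values below was not tested.

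The window of the deposited H3K27me3 values needs stating before the results. The column is headed as the start site with 1 kb on each side, but it follows the lower genome coordinate of a gene on both strands. Rows that shared the lower coordinate had identical H3K27me3 in 279 of 279 groups of plus-strand rows and in 407 of 407 groups of minus-strand rows, whereas rows that shared the upper coordinate were identical in 6 of 454 and 2 of 259 groups. For the 19 plus-strand genes (Dlx1, Dlx3, Dlx6, Six3, Six6, Lhx2, Lhx5, Nkx2-3, Irx2, Irx4, Irx5, Irx6, Pou4f3, En1, En2, Emx1, Emx2, Gsx1 and Gsx2) the value therefore lies at the start site. For the other 29, on the minus strand, it lies at the end of the gene, and counts are given for both strands apart. H3K4me3 windows are listed by start site on both strands, and the centre of the window used lies within 517 bp of a start site of the gene table for all but 3 genes: Lhx9 (993 bp), Lhx8 (1922 bp) and Lhx3 (3690 bp).

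For orientation, the 250 bases before the start site are shown for 6 of the genes on which the results turn, from RefSeq on build GRCm38.p6, 5′ to 3′ on the strand of the gene, with each CG dinucleotide in capitals. CG-rich start sites are the usual seat of both marks. The first set is the 3 genes with at least 5 RPKM of H3K4me3 in 100000 cells. They are Six4 (chr12:73113426-73113675, minus strand, the upstream one of 2 entries), Pou4f1 (chr14:104468000-104468249, minus strand) and Irx3 (chr8:91801655-91801904, minus strand).
Six4: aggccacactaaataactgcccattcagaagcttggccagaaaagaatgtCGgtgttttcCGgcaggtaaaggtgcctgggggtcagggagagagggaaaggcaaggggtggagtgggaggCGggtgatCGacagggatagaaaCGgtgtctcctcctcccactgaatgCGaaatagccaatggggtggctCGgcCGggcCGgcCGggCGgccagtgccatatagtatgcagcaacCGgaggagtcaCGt
Pou4f1: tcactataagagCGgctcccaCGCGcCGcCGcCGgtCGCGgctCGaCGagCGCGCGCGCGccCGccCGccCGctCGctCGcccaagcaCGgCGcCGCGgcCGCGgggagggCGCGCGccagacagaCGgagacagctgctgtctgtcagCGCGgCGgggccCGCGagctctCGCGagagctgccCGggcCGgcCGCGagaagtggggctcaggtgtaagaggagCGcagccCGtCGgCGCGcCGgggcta
Irx3: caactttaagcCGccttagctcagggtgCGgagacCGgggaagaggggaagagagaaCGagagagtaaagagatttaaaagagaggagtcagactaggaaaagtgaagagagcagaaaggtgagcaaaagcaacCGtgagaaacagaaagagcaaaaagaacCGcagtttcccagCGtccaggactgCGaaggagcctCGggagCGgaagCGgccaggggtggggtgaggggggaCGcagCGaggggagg

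The second set was chosen by H3K27me3, a mark that was low at the gene end of Six4. It holds the 3 plus-strand genes with the most at their start site in 100000 cells, among those with an entry. They are Gsx1 (chr5:147188446-147188695), Nkx2-3 (chr19:43612075-43612324) and Gsx2 (chr5:75075351-75075600), all on the plus strand.
Gsx1: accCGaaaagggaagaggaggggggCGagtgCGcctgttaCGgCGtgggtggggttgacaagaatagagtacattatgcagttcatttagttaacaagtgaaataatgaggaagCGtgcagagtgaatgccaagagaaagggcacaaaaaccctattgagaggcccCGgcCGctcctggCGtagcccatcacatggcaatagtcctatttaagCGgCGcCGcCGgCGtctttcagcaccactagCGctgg
Nkx2-3: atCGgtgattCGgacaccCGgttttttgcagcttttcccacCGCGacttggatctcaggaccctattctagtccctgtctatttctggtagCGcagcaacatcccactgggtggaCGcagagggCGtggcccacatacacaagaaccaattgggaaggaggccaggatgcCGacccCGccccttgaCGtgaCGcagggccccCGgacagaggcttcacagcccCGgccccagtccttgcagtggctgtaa
Gsx2: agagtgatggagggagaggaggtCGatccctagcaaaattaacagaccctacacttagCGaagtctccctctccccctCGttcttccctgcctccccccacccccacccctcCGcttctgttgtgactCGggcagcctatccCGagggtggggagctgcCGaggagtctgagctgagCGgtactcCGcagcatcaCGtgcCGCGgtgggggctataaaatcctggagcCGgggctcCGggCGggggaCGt

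The window of Pou4f1 holds 47 CG dinucleotides, a number reached by 0.25% of the 32851 mouse promoter entries of the same length, whose median is 6. The other 5 hold 13 (Six4 and Irx3), 14 (Nkx2-3), 15 (Gsx1) and 16 (Gsx2), counts that 25.4% to 31.5% of all entries reach. Six4, with H3K4me3 and little H3K27me3 at its gene end, and Irx3, with H3K4me3 and with H3K27me3 at its gene end, hold the same number. The motif searched was CG, which reads the same on both strands. An entry was found for 36 of the 48 genes (75%), so no summary of CG content over the whole set is given.

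H3K27me3 covered most of these genes at every cell number. At least 1 RPKM was found in 38 of the 48 genes in 1000 cells (5.25% of all genes), in 41 in 10000 cells (11% of all genes) and in 42 in 100000 cells (9.55% of all genes). At the start sites of the 19 plus-strand genes, the count was 16 in 1000 cells (6.81% of plus-strand genes), 18 in 10000 cells (15.5%) and 18 in 100000 cells (13.5%). At the gene ends of the 29 minus-strand genes it was 22 (3.67% of minus-strand genes), 23 (6.49%) and 24 (5.59%). The median of the 48 genes was 1.32 RPKM in 1000 cells, 2.73 RPKM in 10000 cells and 2.335 RPKM in 100000 cells, against 0.31, 0.28 and 0.28 RPKM over all genes. In 100000 cells that median stood at percentile 98.37 of all genes, and the median of the plus-strand genes, 2.13 RPKM, at percentile 97.79. The 6 genes under 1 RPKM in 100000 cells were Dlx6, Six4, Lhx4, Lhx6, Lhx8 and Barhl1, of which only Dlx6 is on the plus strand. Those nearest to the threshold were Nkx2-2, just inside at 1.03 RPKM, and Dlx6, just outside at 0.94 RPKM.

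**Figure D1:**
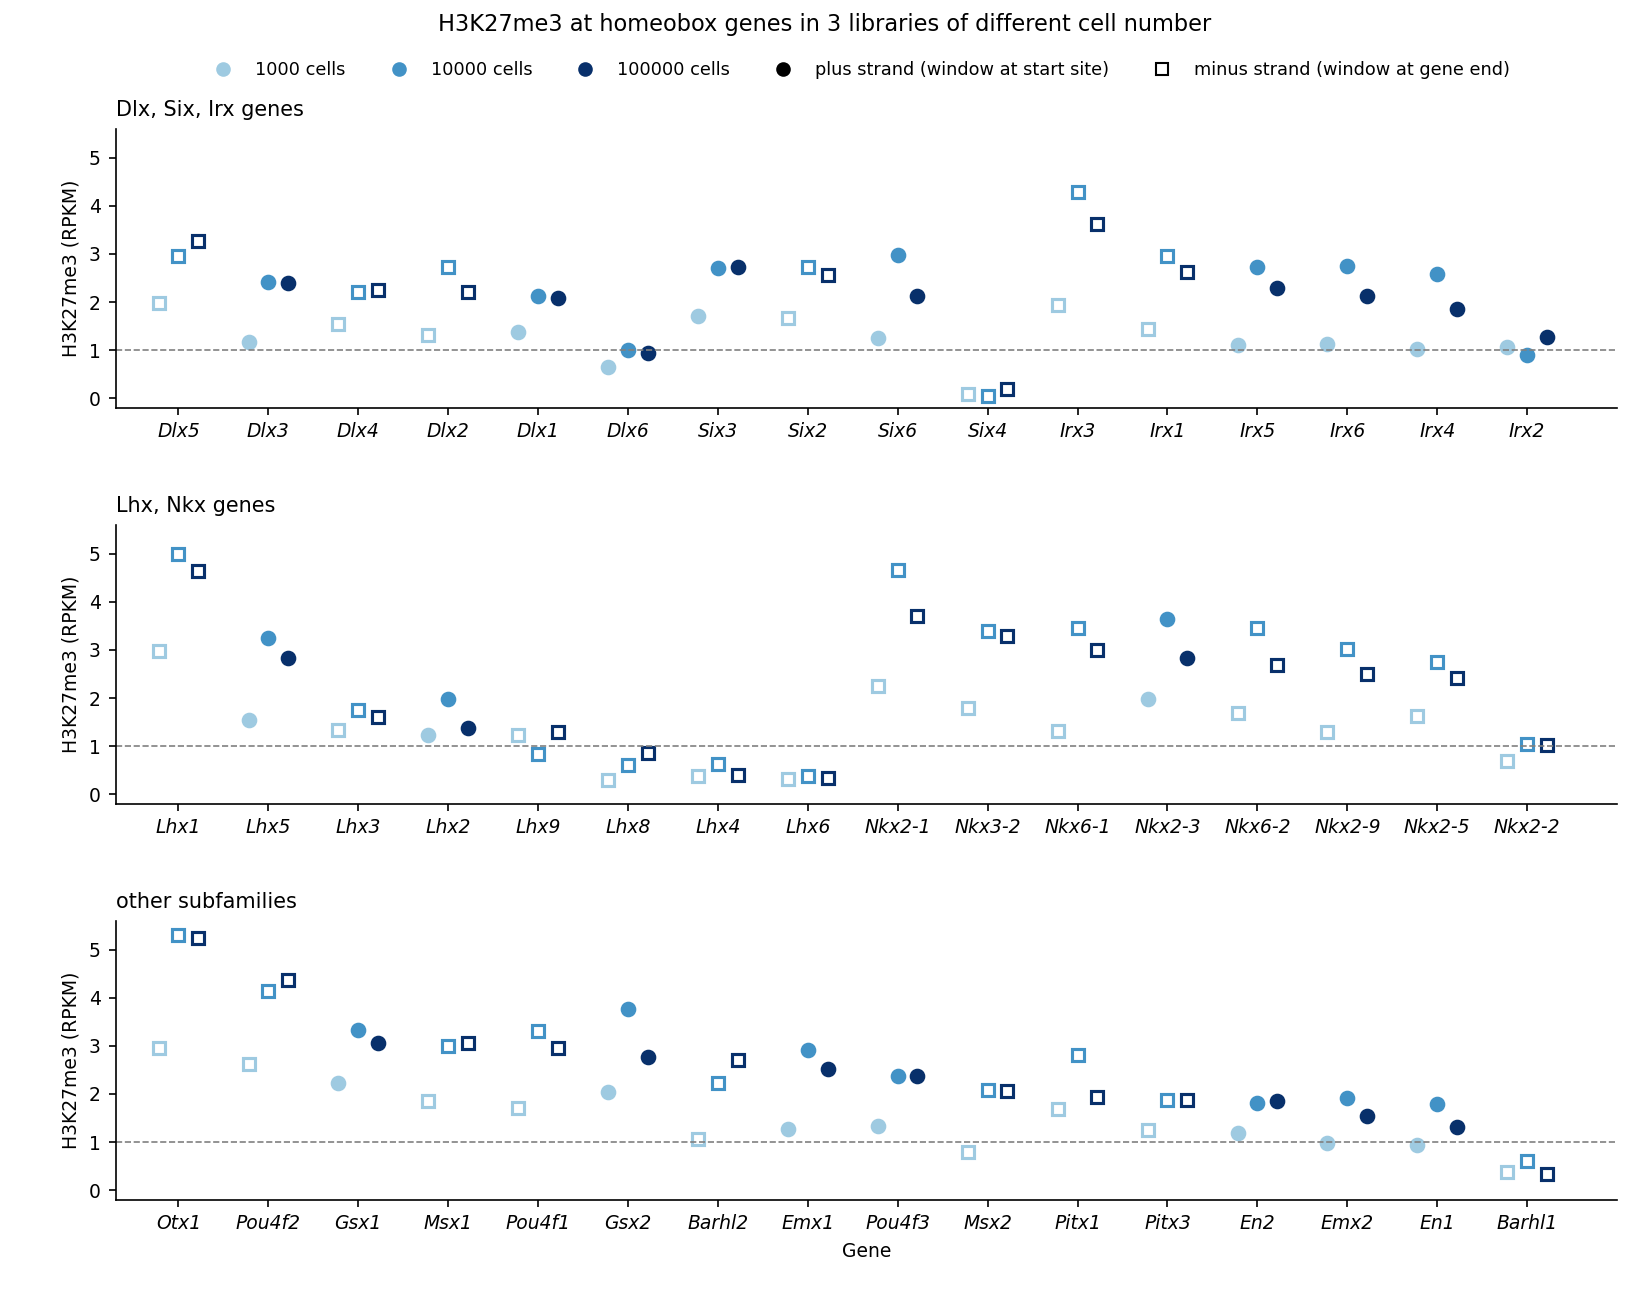
H3K27me3 (RPKM, vertical axis) of each of the 48 genes in the libraries of 1000, 10000 and 100000 cells, ordered within a subfamily by the value in 100000 cells; filled circles are plus-strand genes (window at the start site), open squares minus-strand genes (window at the gene end), and the dashed line is 1 RPKM. Six4, Lhx4, Lhx6, Lhx8 and Barhl1 lie below 1 RPKM in all 3 libraries, and the 1000-cell value is the lowest of the 3 for most other genes.

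The Dlx genes, homologues of Drosophila Distal-less that act in the pharyngeal arches, limbs and forebrain interneurons, lie in 3 tail-to-tail pairs. The median of the 6 genes was 1.345 RPKM in 1000 cells, 2.315 RPKM in 10000 cells and 2.23 RPKM in 100000 cells. In each pair the plus-strand gene (Dlx1, Dlx3 or Dlx6) was read at its start site and its partner at the gene end, so the windows differ. Dlx5 was the highest, with 1.99, 2.96 and 3.27 RPKM at its gene end in 1000, 10000 and 100000 cells. Its partner Dlx6, whose gene body lies 9.83 kb away on chromosome 6, was the lowest, with 0.64, 1.01 and 0.94 RPKM. The low start-site value of Dlx6 had marked sequence near it: the antisense gene Dlx6as, which overlaps it, was listed at 1.27, 1.93 and 1.71 RPKM, and a 2 kb bin 5333 bp from Dlx6 (mm9 chr6:6806001-6808000) at 1.46, 3.92 and 3.36 RPKM. In the other pairs the start-site value of 1 gene was close to the gene-end value of its partner. Dlx1 (1.37, 2.12 and 2.09 RPKM) and Dlx2 (1.32, 2.73 and 2.20 RPKM) lie 9.42 kb apart on chromosome 2. Dlx3, which acts in skin and teeth, had 1.16, 2.42 and 2.40 RPKM. Dlx4, 15.2 kb from it on chromosome 11, had 1.54, 2.21 and 2.26 RPKM.

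Of the Six-family genes, homologues of Drosophila sine oculis, 3 of 4 carried H3K27me3 and 1 did not. Six3, which specifies forebrain and eye, had 1.70 RPKM in 1000 cells, 2.71 RPKM in 10000 cells and 2.72 RPKM in 100000 cells at its start site. Six2, which maintains the progenitors of the nephron, had 1.67, 2.72 and 2.57 RPKM at its gene end, 58.1 kb from Six3. Six6, a gene of retina and pituitary, had 1.25, 2.98 and 2.13 RPKM at its start site. These 3 differed from each other by less than they differed from Six4, which had 0.09, 0.04 and 0.19 RPKM. Six4, a gene of developing muscle, lies 155 kb from Six6 on chromosome 12. Its window is at the gene end, but a bin inside the gene (mm9 chr12:74210001-74212000) was also far below the other 3 genes: it had 0.35 RPKM in 1000 cells (interval 0.158 to 0.655), 0.10 RPKM in 10000 cells (0.0202 to 0.286) and 0.15 RPKM in 100000 cells (0.056 to 0.332). In 1000 cells that interval lies above the 0.09 RPKM of the gene end.

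The Lhx genes, whose proteins carry LIM domains beside the homeodomain, were uneven, from 0.33 RPKM (Lhx6) to 4.64 RPKM (Lhx1) in 100000 cells. Their median was 1.235 RPKM in 1000 cells, 1.295 RPKM in 10000 cells and 1.335 RPKM in 100000 cells. The low median goes with the 6 genes measured at gene ends, with medians of 0.80, 0.73 and 1.08 RPKM. At start sites, the 2 Lhx genes had medians of 1.395, 2.605 and 2.10 RPKM, above those of the 3 Dlx genes measured there (1.16, 2.12 and 2.09 RPKM). Lhx1, required for the formation of the head, was among the highest of all 48 genes, with 2.97, 5 and 4.64 RPKM at its gene end. A neighbouring transcript that begins 120 bp from the start site of Lhx1 gave 1.24, 3.03 and 2.61 RPKM there. Lhx5, a forebrain gene, followed with 1.55, 3.24 and 2.83 RPKM at its start site. Lhx3 and Lhx4 are both pituitary and motor neuron genes, but Lhx3 had 1.33, 1.76 and 1.6 RPKM and Lhx4 only 0.37, 0.63 and 0.40 RPKM. Lhx6 and Lhx8, which act in neurons of the basal forebrain, had 0.32, 0.37 and 0.33 RPKM and 0.30, 0.60 and 0.86 RPKM. All 3 low genes are on the minus strand and are 22108 to 40336 bp long, so their windows lie far from the start site. For Lhx8 a bin 2481 bp upstream of the start (mm9 chr3:153996001-153998000) had 1.84 RPKM in 1000 cells, 2.91 RPKM in 10000 cells and 3.25 RPKM in 100000 cells. The table of bins has none within 10 kb of Lhx4 or Lhx6. Lhx2 (1.24, 1.97 and 1.37 RPKM at its start site) and Lhx9, a gonad gene (1.23, 0.83 and 1.30 RPKM at its end), lay between.

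Every Nkx gene carried the mark in 10000 and 100000 cells, and 7 of 8 did in 1000 cells. The median was 1.655 RPKM in 1000 cells, 3.425 RPKM in 10000 cells and 2.755 RPKM in 100000 cells, the highest of the subfamilies with both strands pooled. At gene ends alone, the 7 Nkx genes had medians of 1.62, 3.39 and 2.68 RPKM and the 2 Irx genes measured there were higher, at 1.695, 3.615 and 3.125 RPKM. Nkx2-1, the regulator of thyroid, lung and ventral forebrain, had 2.24, 4.67 and 3.71 RPKM. Nkx3-2, which acts in the axial skeleton, had 1.79, 3.39 and 3.28 RPKM. Nkx2-9, 76.3 kb from Nkx2-1 on chromosome 12 and expressed in the ventral neural tube, had 1.30, 3.01 and 2.49 RPKM. The only plus-strand member, Nkx2-3, a gene of gut mesenchyme and spleen, had 1.97, 3.65 and 2.83 RPKM at its start site, within the range of the others. The heart regulator Nkx2-5 had 1.62, 2.75 and 2.41 RPKM. Nkx2-2, which patterns the ventral spinal cord, was the lowest with 0.68, 1.05 and 1.03 RPKM. Nkx6-2, a gene of oligodendrocytes and neural progenitors, has 2 transcripts with different ends. The one that reaches further downstream was listed at 0.19, 0.21 and 0.32 RPKM, against 1.69, 3.46 and 2.68 RPKM for the shorter one, which stands for the gene here.

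The Irx genes of the Iroquois family lie in 2 clusters of 3, Irx1, Irx2 and Irx4 on chromosome 13 and Irx3, Irx5 and Irx6 on chromosome 8. All 6 had at least 1 RPKM in 1000 and 100000 cells, and 5 did in 10000 cells. Irx3, which acts in neural tube, heart and limb, was the highest as deposited, with 1.94, 4.28 and 3.63 RPKM at its gene end. At the start sites, Irx5 had 1.11, 2.73 and 2.30 RPKM and Irx6 had 1.13, 2.76 and 2.13 RPKM, so these neighbours were close to equal. In the other cluster Irx1 had 1.45, 2.95 and 2.62 RPKM. Irx4, a gene of the cardiac ventricle, had 1.03, 2.59 and 1.86 RPKM at its start site. Irx2 stood apart from both, with 1.06 RPKM in 1000 cells, 0.89 RPKM in 10000 cells and 1.28 RPKM in 100000 cells, and was the only one of the 19 plus-strand genes with less of the mark in 10000 cells than in 1000. Values on chromosomes 1, 8 and 11 carry a further limit. Mean panH3 over the bins of these chromosomes was 1.37, 1.32 and 1.43 times that of all autosomes, so the Irx3, Irx5 and Irx6 values, and those of Pou4f2, En1, Lhx1, Lhx4, Lhx9, Otx1, Dlx3 and Dlx4, are not corrected for it. When each value was divided by the panH3 ratio of its chromosome, Irx1 passed Irx3 in 1000 cells (1.57 against 1.47 RPKM) and in 100000 cells (2.84 against 2.74 RPKM), while Irx3 stayed the higher in 10000 cells (3.24 against 3.19 RPKM).

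Among the 16 other genes, 12 had at least 1 RPKM in 1000 cells and 15 in both larger libraries. Otx1, a forebrain gene, was the highest of all 48 genes in 10000 and 100000 cells as deposited, with 2.96, 5.30 and 5.24 RPKM. It lies on chromosome 11, and with values divided by the panH3 ratio of the chromosome Nkx2-1 was the highest in all 3 libraries, at 2.53, 5.27 and 4.18 RPKM, against 2.07, 3.71 and 3.67 RPKM for Otx1. Pou4f2, required in retinal ganglion cells, had 2.63, 4.14 and 4.36 RPKM. Both are values at gene ends. Of the 7 genes of this group measured at start sites, Gsx1 (2.22, 3.33 and 3.06 RPKM) and Gsx2 (2.04, 3.76 and 2.77 RPKM), which pattern the ventral telencephalon, were the highest. Among all 19 start sites they shared the top with Nkx2-3 and Lhx5, which were above Gsx2 in 100000 cells at 2.83 RPKM each. The midbrain and hindbrain gene En1 had 0.94, 1.79 and 1.31 RPKM, and its paralogue En2 had 1.18, 1.81 and 1.86 RPKM. The cortical genes Emx1 (1.27, 2.91 and 2.51 RPKM) and Emx2 (0.98, 1.92 and 1.54 RPKM) lay near them. The paralogues Barhl1 and Barhl2, which act in sensory and cerebellar neurons, were far apart: Barhl1 had 0.38, 0.61 and 0.34 RPKM, the lowest of the group, and Barhl2 had 1.06, 2.23 and 2.71 RPKM. Msx1 and Msx2, genes of teeth, skull and limb, had 1.86, 2.99 and 3.06 RPKM and 0.80, 2.08 and 2.07 RPKM. Both are measured at gene ends. The hindlimb gene Pitx1 had 1.68, 2.81 and 1.94 RPKM, and Pitx3, a gene of midbrain dopamine neurons, had 1.25, 1.88 and 1.88 RPKM. Pou4f1, of sensory neurons, had 1.71, 3.31 and 2.96 RPKM at its end. Pou4f3, of inner ear hair cells, had 1.34, 2.37 and 2.37 RPKM at its start site.

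In 1000 cells the genes stood in much the same order as in 100000 cells, at lower values. Across the 48 genes, Spearman's rho between 1000 and 100000 cells was 0.887, and between 10000 and 100000 cells 0.928, a description over genes that share their libraries. At the 19 start sites it was 0.848 and 0.884. A ratio was taken for the 41 genes whose mean over the 3 libraries reached 1 RPKM, as log2 of each value plus 0.1 RPKM. The other 7, Dlx6, Six4, Lhx4, Lhx6, Lhx8, Nkx2-2 and Barhl1, were below that mean. All 41 were lower in 1000 than in 100000 cells, as were 1708 of the 1856 genes of the whole table that passed the same filter. The 41 had a median log2 ratio of -0.69, against -0.60 over those 1856. More than 1.5-fold lower values were found in 28 of the 41 (68.3%), against 52.4% of the 1856. Among plus-strand genes the count was 11 of 18 (61.1%), against 57.4%, with medians of -0.63 and -0.65. Among minus-strand genes it was 17 of 23 (73.9%), against 39.8%, with medians of -0.70 and -0.48. By level, the 4 genes with a mean of 1 to 1.5 RPKM had a median of -0.34, against -0.49 over all genes of that level. The 8 genes with 1.5 to 2 RPKM had -0.59, against -0.65. The 14 genes with 2 to 2.5 RPKM had -0.75, against -0.73, and the 10 genes with 2.5 to 3 RPKM had -0.69, against -0.72. The 5 genes with at least 3 RPKM had -0.71, against -0.70. These classes pool both strands, so they do not address the gap among minus-strand genes. The median of all genes was itself 0.152 higher on the log2 scale in the 1000-cell library. Scaling the libraries to equal medians took the median ratio to -0.84 for the homeobox genes and -0.75 for all genes that then passed the filter. It left all 41 negative.

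**Figure D2:**
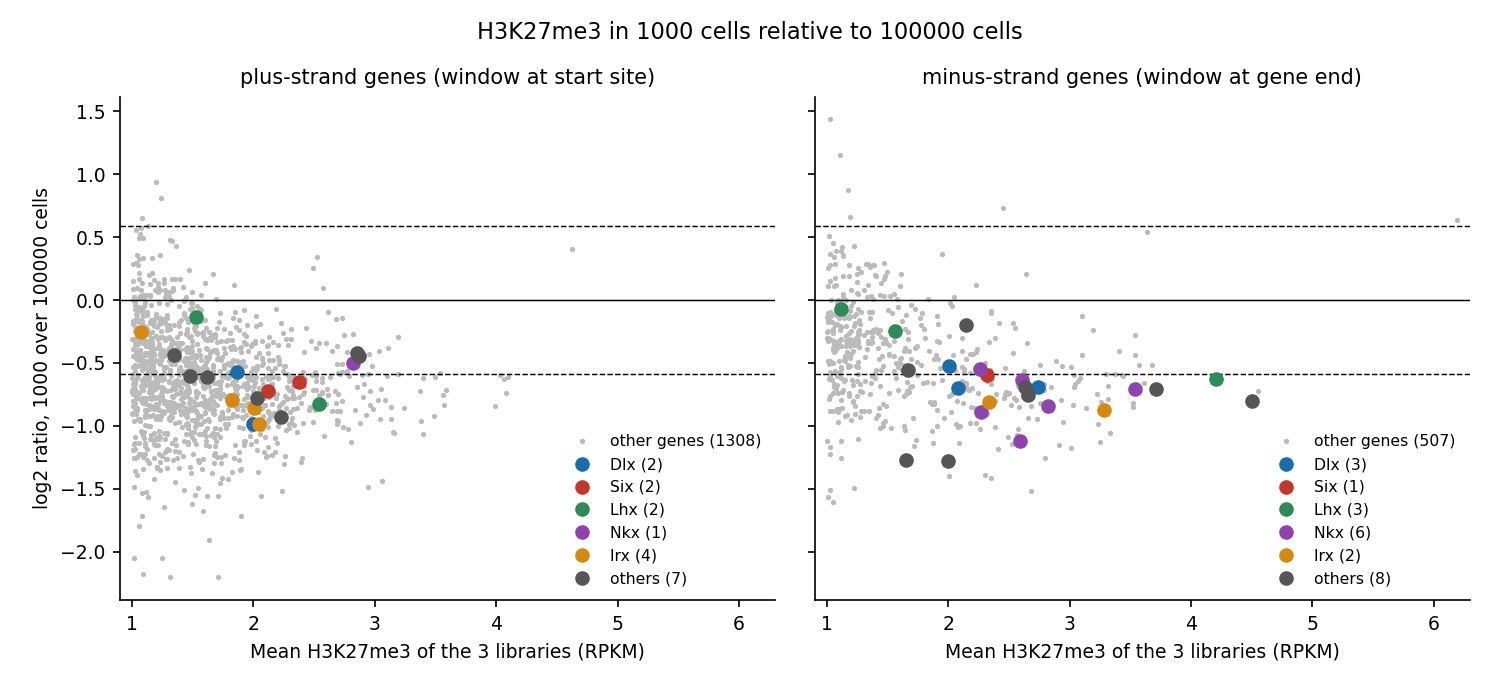
The log2 ratio of H3K27me3 in 1000 over 100000 cells (vertical axis) against the mean of the 3 libraries (RPKM, horizontal axis) for genes whose mean reached 1 RPKM, with plus-strand genes on the left and minus-strand genes on the right; coloured points are homeobox genes by subfamily, grey points are other genes, and dashed lines mark 1.5-fold. All 41 homeobox genes lie below 0, between -1.28 and -0.07, within the band of other genes of like level.

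The subfamilies lay close together in this ratio, apart from the Lhx genes. The median log2 ratio of 1000 over 100000 cells was -0.69 for 5 Dlx genes, -0.65 for 3 Six-family genes, -0.70 for 7 Nkx genes, -0.83 for 6 Irx genes and -0.69 for 15 others, and -0.25 for 5 Lhx genes. The Lhx median turned on 1 gene: with the libraries scaled, another transcript stands for Lhx9 and the median was -0.77. The lowest ratios were those of Barhl2 at -1.28 (1.06 RPKM in 1000 cells, against 2.71 RPKM in 100000 cells) and Msx2 at -1.27 (0.80 against 2.07 RPKM). Nkx6-1, of pancreatic beta cells and motor neuron progenitors, followed at -1.12 (1.32 against 2.99 RPKM), and Dlx3 and Irx5 at -0.99 each. The ratios nearest to 0 were those of Lhx9 at -0.07 (1.23 against 1.30 RPKM), Lhx2 at -0.13 (1.24 against 1.37 RPKM), Pitx1 at -0.20 (1.68 against 1.94 RPKM), and Lhx3 and Irx2 at -0.25 each. The place of Lhx9 rests on the choice of transcript: a transcript with another end and the same mean over the 3 libraries had 0.74 RPKM in 1000 cells, against 1.49 RPKM in 100000 cells, and with scaled libraries, where it stands for the gene, the ratio was -1.05, among the lowest. The 10000-cell library was close to that of 100000 cells. Its median log2 ratio was 0.16 over the 41 genes and 0.14 over the 1856 genes that passed the filter. No homeobox gene was more than 1.5-fold higher in 10000 cells (3.07% of the 1856 genes). More than 1.5-fold lower was 1 (0.377% of the 1856): Lhx9, with 0.83 RPKM in 10000 cells, against 1.30 RPKM in 100000 cells. Its log2 ratio of -0.59 barely passed, and the call was lost with median scaling (-0.42), with a pseudocount of 0.5 RPKM (-0.44) or 1 RPKM (-0.33) and with the mean over transcripts (-0.51).

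Few of these genes were strongly marked with H3K4me3. In 100000 cells the median of the 48 genes was 1.81 RPKM, against 1.39 RPKM over all 25832 genes of that table. Against the genes that are also in the gene table, as these 48 are, it was the lower: 1.63 against 2.11 RPKM on the plus strand and 1.93 against 2.05 RPKM on the minus strand. In 5000 cells the median was 2.15 RPKM on each strand, against 3.77 and 3.23 RPKM, and in 10000 cells 3.75 RPKM, against 7.5 RPKM on both. At least 5 RPKM was reached by 10 genes in 5000 cells (37.6% of all genes), 14 in 10000 cells (46.8%) and 3 in 100000 cells (21.4%, and 25.2% of the genes of either strand that are also in the gene table). The larger counts in small libraries go with a shift of all genes: the medians over all genes were 2.15 RPKM in 5000 cells, 3.75 RPKM in 10000 cells and 1.39 RPKM in 100000 cells, and in the smaller libraries 5 RPKM is fewer than 10 reads. Counts are therefore not compared across cell numbers. The strongest windows of the genome seem to be left out of this table, where no value passes 49.6 RPKM in 5000 cells, 99.4 RPKM in 10000 cells or 49.2 RPKM in 100000 cells.

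Six4 led in each of the 3 libraries. It had 18.9 RPKM in 5000 cells (interval 13.1 to 26.2), 40.3 RPKM in 10000 cells (29.2 to 54.3) and 9.03 RPKM in 100000 cells (7.65 to 10.6). Pou4f1 came second with 14 RPKM (9.15 to 20.5), 23.4 RPKM (15.2 to 34.6) and 5.84 RPKM (4.74 to 7.13). Its value came from 1 of 2 annotated start sites, 2634 bp apart, and the other had 0.72 RPKM in 100000 cells. Irx3, on chromosome 8 with its excess of panH3, came next in 100000 cells with 7 RPKM in 5000 cells, 15 RPKM in 10000 cells and 5.12 RPKM in 100000 cells (4.09 to 6.33). The intervals of Pou4f1 and Irx3 in 100000 cells reach below 5 RPKM, so their place above it was not certain at this depth.

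By subfamily, the Irx genes had the highest median in each of the 3 libraries, 4.85 RPKM in 5000 cells, 9.845 RPKM in 10000 cells and 2.11 RPKM in 100000 cells, and the Nkx genes the lowest in 100000 cells (1.295 RPKM). After Irx3, Irx5 had 5.39, 10.3 and 4.10 RPKM in 5000, 10000 and 100000 cells. Irx2 had 6.46, 15 and 2.05 RPKM, the lowest of the Irx genes in 100000 cells together with Irx4 (3.77, 4.69 and 2.05 RPKM). Of the Dlx genes, whose medians were 2.42, 4.22 and 2.02 RPKM, Dlx4 was the highest with 5.39, 10.3 and 3.13 RPKM and Dlx6 the lowest with 0.54, 5.63 and 1.08 RPKM. The 3 Six-family genes other than Six4 were far below it, at 2.11 RPKM (Six2), 1.57 RPKM (Six3) and 1.14 RPKM (Six6) in 100000 cells. Among the Lhx genes, with medians of 2.42, 2.345 and 1.75 RPKM, Lhx1 (3.19 RPKM in 100000 cells) and Lhx2 (2.77 RPKM) were the highest and Lhx8 (0.96 RPKM) the lowest. At the windows nearest to their start sites, 95 and 19 bp away, Lhx8 had 0.42 RPKM and Lhx3 0.48 RPKM in place of 0.96 and 1.02 RPKM. Nkx6-2 was the highest Nkx gene with 4.31, 9.38 and 3.49 RPKM, and Nkx2-9 the lowest of all 48 genes in 100000 cells with 0.42 RPKM (0.17 to 0.869). Of the others, Otx1 (6.46, 6.56 and 3.73 RPKM) and Barhl2 (5.39, 4.69 and 3.01 RPKM) followed Pou4f1, and Barhl1 was the lowest (0.54, 0 and 0.96 RPKM). In 100000 cells the interval of Six4 lay above that of every other gene, and from Pou4f1 down each gene's interval overlapped that of the next.

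**Figure D3:**
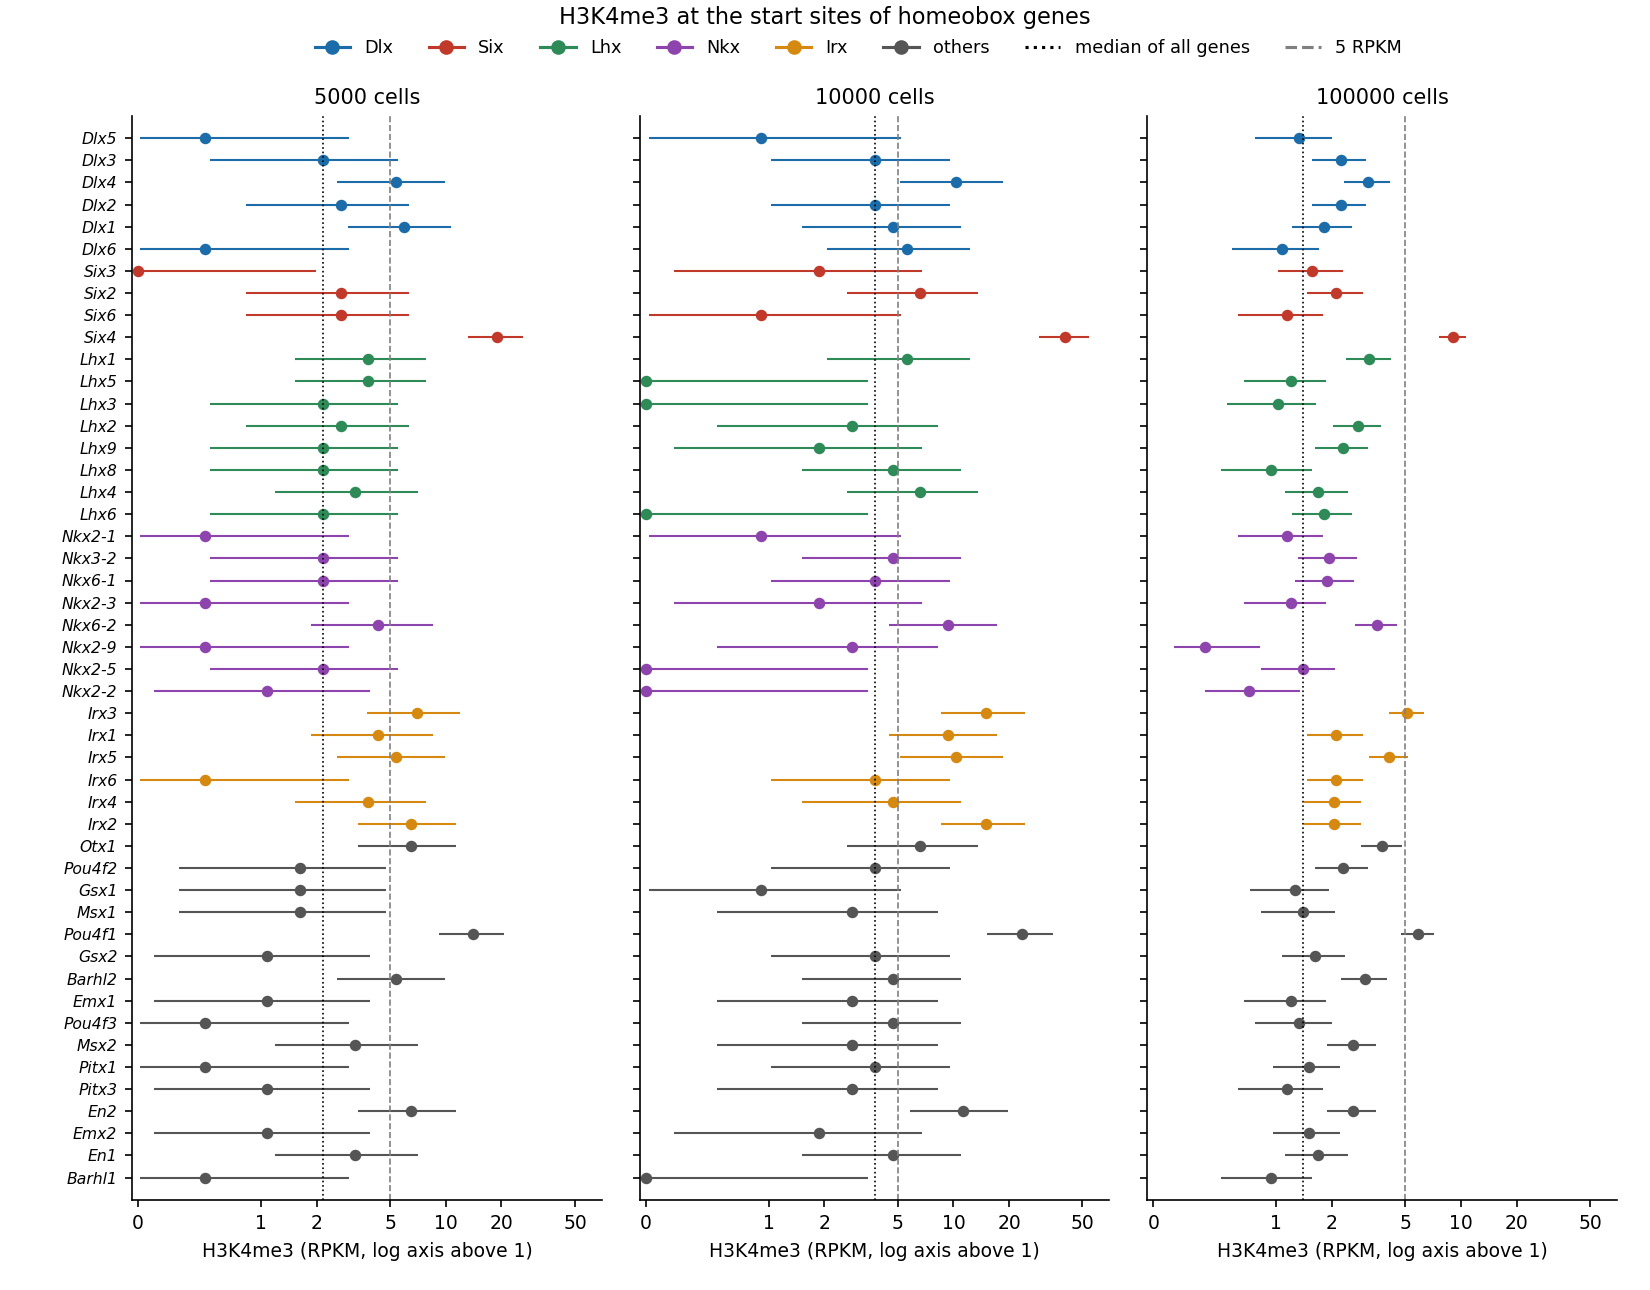
H3K4me3 (RPKM, horizontal axis, linear up to 1 and logarithmic above) in the start-site window used for each of the 48 genes in 5000, 10000 and 100000 cells, coloured by subfamily, with bars for the exact 95% Poisson interval of the reads; the dotted line is the median of all 25832 genes of the table and the dashed line 5 RPKM. Six4, Pou4f1 and Irx3 are the 3 genes above 5 RPKM in 100000 cells, and the bars are wide in the 2 shallower libraries.

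Both marks together were found in 2 of the 48 genes in 100000 cells, Irx3 and Pou4f1 (0.743% of the 20471 genes in both tables), with at least 1 RPKM of H3K27me3 and 5 RPKM of H3K4me3. Both are minus-strand genes, with H3K27me3 read at the gene end, 2848 bp (Irx3) and 5680 bp (Pou4f1) from the start site. The values therefore do not show both marks on 1 start site. H3K27me3 alone was found in 40 (9.02% of genes), H3K4me3 alone in 1, Six4 (24.5%), and neither in 5, Dlx6, Lhx4, Lhx6, Lhx8 and Barhl1 (65.8%). For Six4, Lhx4, Lhx6, Lhx8 and Barhl1, H3K27me3 was read at the gene end, 8760 to 40336 bp from the start site. Their calls do not cover H3K27me3 at the start site. A bin 2481 bp upstream of the Lhx8 start had 3.25 RPKM of it in 100000 cells. At the 19 start sites, where both marks are measured in the same place, 18 had H3K27me3 alone (12.8% of plus-strand genes), 0 had both (1.14%), 0 had H3K4me3 alone (24%) and 1, Dlx6, had neither (62%). The count with both marks rested on the H3K4me3 threshold. At 2 RPKM it was 20 of 48 (3.83% of genes), and 7 of 19 at start sites (5.88%). Those 7 were Dlx3, Lhx2, Irx2, Irx4, Irx5, Irx6 and En2. Irx5, with 2.30 RPKM of H3K27me3 and 4.10 RPKM of H3K4me3 (interval 3.18 to 5.19), was nearest to the higher threshold. Over the 19 start sites Spearman's rho between the marks was -0.291 in 100000 cells, again a description over genes of the same libraries.

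**Figure D4:**
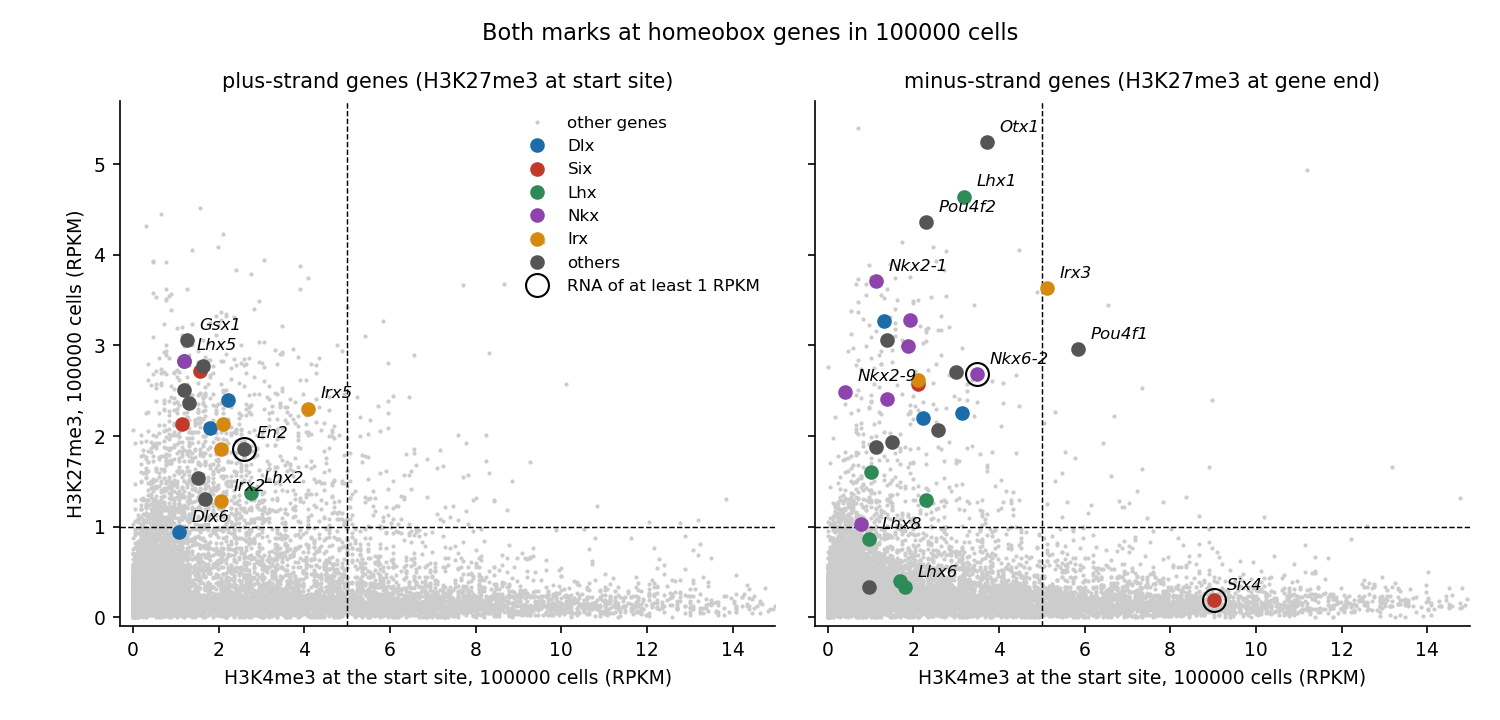
H3K27me3 (RPKM, vertical axis) against H3K4me3 (RPKM, horizontal axis) in 100000 cells, for plus-strand genes on the left and minus-strand genes on the right, with homeobox genes coloured by subfamily and other genes in grey (those above 15 RPKM of H3K4me3 are outside the axis); dashed lines are the thresholds of 1 and 5 RPKM, and rings mark genes with at least 1 RPKM of RNA. Irx3 and Pou4f1, with H3K27me3 read at their gene ends, lie past both thresholds, and Six4 lies alone at the lower right.

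RNA of these genes was scarce in 1000 cells. The median was 0.06 RPKM, against 1.02 RPKM over all genes. Listed at 0 were 12 of the 48 genes, against 4608 of all 22035 genes, so that count alone does not set them apart. At least 1 RPKM was reached by 3 genes (50.2% of all genes): Six4 with 7.13 RPKM, Nkx6-2 with 1.46 RPKM and En2 with 1.43 RPKM. With 1 bulk library, a low level in every cell and RNA from a few cells cannot be told apart. Next came Lhx6 and Pou4f1 with 0.85 RPKM each, Irx2 with 0.36 RPKM, and Msx2 and Barhl1 with 0.30 RPKM each. Six4 was thus the gene with the most H3K4me3, the least H3K27me3 (read at its gene end) and the most RNA. En2 and Nkx6-2 had RNA together with H3K27me3, En2 with 1.86 RPKM at its start site in 100000 cells and Nkx6-2 with 2.68 RPKM at the end of its shorter transcript. That transcript had 1.28 RPKM of RNA, and the value of 1.46 RPKM is of the longer one, whose end had 0.32 RPKM of H3K27me3. The longer transcript of Nkx6-2 is overlapped at its end by Inpp5a on the other strand, at 0.29 RPKM of RNA. Whether the counts used strand is not given. As listed, Inpp5a ends at mm9 chr7:146765552 and does not reach the shorter transcript, whose lower coordinate is 146767120. Dlx3 was the highest of the Dlx genes at 0.20 RPKM, and Irx5 followed Irx2 at 0.29 RPKM. Dlx1, Dlx5, Lhx3, Lhx9, Nkx2-1, Nkx2-2, Nkx3-2, Irx6, Pitx1, Msx1, Emx2 and Gsx2 were listed at 0.

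Among genes with at least 1 RPKM of H3K27me3 in 100000 cells, RNA of at least 1 RPKM was found in 2 of the 42 homeobox genes (4.76%) and in 398 of 1956 other genes (20.3%). At start sites it was 1 of 18 (5.56%) and 314 of 1402 (22.4%). The median H3K27me3 of the marked homeobox genes was 2.45 RPKM, against 1.48 RPKM in the other marked genes, and 2.215 against 1.51 RPKM at start sites. These differences were not tested, as there is 1 library of each kind. High H3K27me3 with little RNA was also found in the Hox clusters. Of 39 Hox genes, strands pooled, 38 had at least 1 RPKM of H3K27me3 in 100000 cells, with a median of 2.86 RPKM. RNA of at least 1 RPKM was found in 0 of the 39.

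Other homeobox genes outside the Hox clusters serve as a comparison. Of 90 measured, 39 had at least 1 RPKM in 1000 cells (43.3%), 55 in 10000 cells (61.1%) and 53 in 100000 cells (58.9%), and on the plus strand 32 of 42 did in 100000 cells, against 18 of 19 of the genes described here, a difference that was not tested. That list holds the ES cell regulators Pou5f1 (0.09 RPKM of H3K27me3 in 100000 cells and 81.4 RPKM of RNA) and Nanog (0.20 and 53.6 RPKM), which differ from the developmental genes in both readouts. In the same list 22 of 90 had at least 1 RPKM of RNA, against 3 of 48. Genes for proteins that homeodomain factors bind, such as the LIM cofactors Ldb1 and Lmo4, the Eya partners of Six-family proteins, the Groucho corepressors and the Pbx and Meis factors, form another list. Of 29, H3K27me3 reached 1 RPKM in 0, 4 and 4 in 1000, 10000 and 100000 cells, with Meis2 the highest at 2.75 RPKM in 100000 cells. Their median RNA was 5.38 RPKM, with 19 of 29 at 1 RPKM or more and Tle4 the highest at 78.6 RPKM. Their median H3K4me3 in 100000 cells was 3.43 RPKM, and 10 of 29 reached 5 RPKM.

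A set of 98085 bins of 2 kb gives a second view of the marks and the only replicated groups, H3K9me3 and panH3 of 1000 cells. The submitters name these bins random, and the set does not tile the genome. It holds 41 bins within 10 kb of these genes, of which 7 lie in a gene or within 1 kb of a start site. Of these 7, H3K27me3 reached 1 RPKM in 5 in 1000 cells (2.98% of all bins), 6 in 10000 cells (5.48%) and 6 in 100000 cells (4.47%). The highest were the bin at the start site of Gsx2 (mm9 chr5:75470001-75472000), with 2.30 RPKM in 1000 cells, 4.90 RPKM in 10000 cells and 3.71 RPKM in 100000 cells, and a bin in Six3 (mm9 chr17:86022001-86024000), with 1.80, 4.28 and 4.30 RPKM. The bin at the start site of Nkx6-1, a minus-strand gene (mm9 chr5:102092001-102094000), had 0.88, 2.42 and 2.59 RPKM, so this gene carried the mark at its start as well as at its end. In all 7 bins except that of Six4, the 1000-cell library was the lowest, and its interval lay below that of 100000 cells for Dlx3, Six3, Nkx6-1, Irx4 and Gsx2.

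No bin of these 7 had more H3K9me3 than panH3 by the test. H3K9me3 was lower than panH3 in 4 of the 7 (24.7% of all 93575 bins tested) and higher in 0 (15.2% of all bins), by limma on log2 of RPKM plus 0.1 with Benjamini-Hochberg adjustment over all bins. Whether a, b and c were grown as separate cultures is not stated in the labels, so these p-values measure no more than the spread between the libraries. Unadjusted, 5 of the 7 had p under 0.05. In the Six4 bin, H3K9me3 was 0.09, 0.10 and 0.15 RPKM in libraries a, b and c, against 0.51 and 0.39 RPKM in panH3 a and b. No library of the groups overlapped, and the log2 difference was -1.37 ± 0.26 (SE, limma adjusted p = 0.000129). At the start site of Dlx3 (mm9 chr11:94980001-94982000) H3K9me3 was 0.28, 0.29 and 0.29 RPKM, against 0.58 and 0.71 RPKM in panH3 (log2 difference -0.94 ± 0.22, limma adjusted p = 0.00106). In Lhx9 (mm9 chr1:140726001-140728000) it was 0.43, 0.29 and 0.31 RPKM, against 0.70 and 0.71 RPKM (-0.87 ± 0.21, limma adjusted p = 0.00172). Both separate without overlap, and chromosomes 11 and 1 carry the excess of panH3 given above. Over the bins of chromosome 11, mean H3K9me3 was also below panH3 (0.504, 0.503 and 0.508 RPKM, against 0.614 and 0.619 RPKM). Over those of chromosome 1 it was not (0.598, 0.609 and 0.607 RPKM, against 0.590 and 0.591 RPKM). In Irx4 (mm9 chr13:73400001-73402000) H3K9me3 was 0.20, 0.34 and 0.31 RPKM, against 0.49 and 0.49 RPKM (-0.64 ± 0.24, limma adjusted p = 0.0352). That call was lost without H3K9me3 a, without panH3 a or without panH3 b, and the Dlx3 call was lost without panH3 b. In the Six3 bin H3K9me3 was the higher, with 0.40, 0.37 and 0.42 RPKM, against 0.23 and 0.24 RPKM, but the difference of 0.57 ± 0.24 missed the threshold (limma adjusted p = 0.0585). Its libraries did not overlap, and it passed in 5 of 12 settings. They were a pseudocount of 1 RPKM, centring on the median, no filter, voom weights and leaving out H3K9me3 a. The bins of Nkx6-1 (0.09 ± 0.28, limma adjusted p = 0.841) and Gsx2 (-0.15 ± 0.26, limma adjusted p = 0.689) gave no call, and their libraries overlapped.

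**Figure D5:**
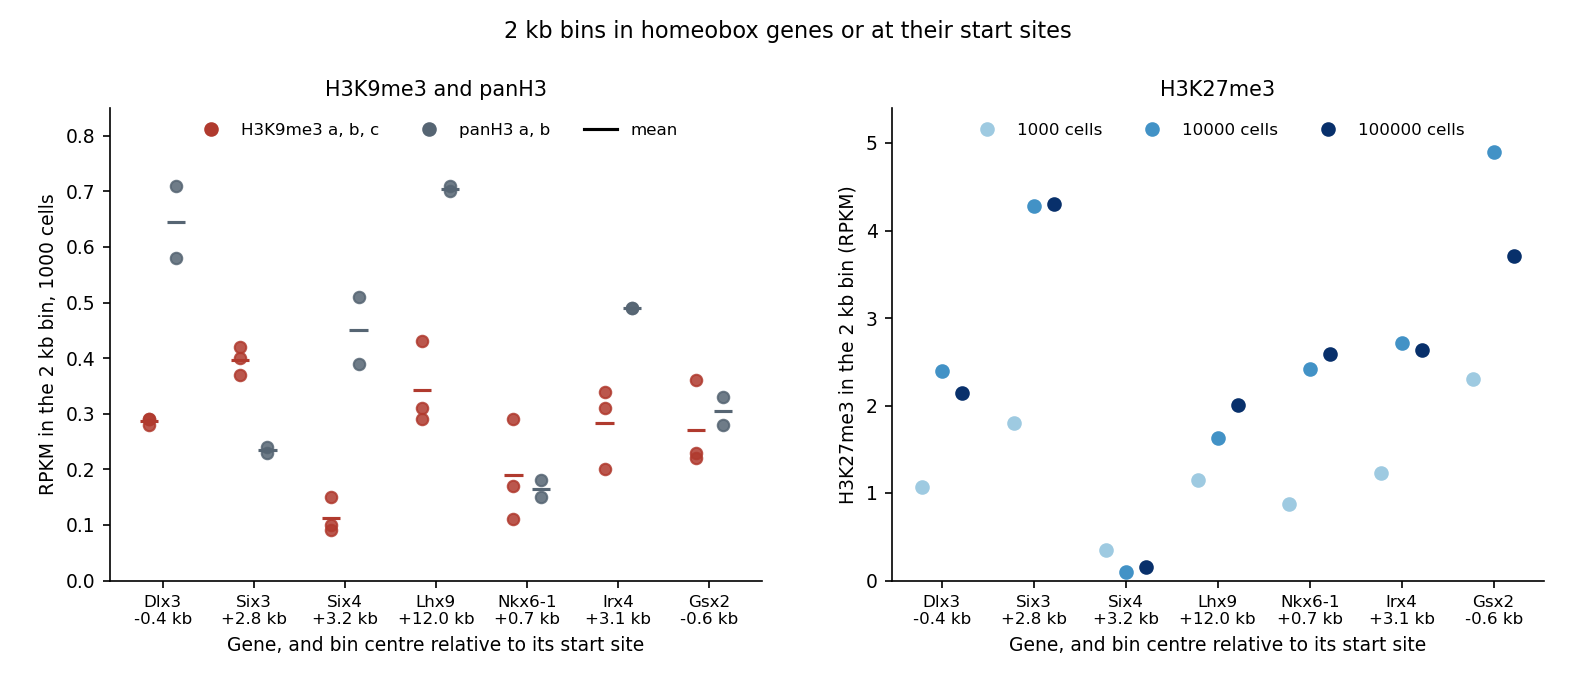
Values (RPKM, vertical axes) in the 7 bins of 2 kb that lie in a homeobox gene or at its start site, with the distance from the start site to the bin centre under each gene; the left panel shows H3K9me3 libraries a, b and c and panH3 libraries a and b of 1000 cells with their means, and the right panel H3K27me3 in 1000, 10000 and 100000 cells. H3K9me3 stays at or below 0.43 RPKM in every bin, whereas H3K27me3 reaches 1.63 RPKM or more in 10000 cells in every bin except that of Six4.

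Within 10 kb, 13 of the 41 bins had less H3K9me3 than panH3 (24.7% of all bins) and 1 had more (15.2%). With each library centred on its median, 9 of the 41 were lower and 4 higher. Over all bins the balance turned with centring, to 18564 lower and 20312 higher, against 23158 lower and 14224 higher as deposited. The largest difference was in a bin 8880 bp from Lhx1 (mm9 chr11:84322001-84324000), with H3K9me3 of 0.11, 0.10 and 0.04 RPKM, against 0.49 and 0.64 RPKM in panH3 (log2 difference -1.87, limma adjusted p = 3.92e-06). The single higher bin lies 9933 bp from Dlx5 (mm9 chr6:6842001-6844000), with 0.85, 1.04 and 0.70 RPKM, against 0.42 and 0.46 RPKM (0.82, limma adjusted p = 0.00121). H3K27me3 reached 1 RPKM in 21 of the 41 bins in 1000 cells (2.98% of all bins), 28 in 10000 cells (5.48%) and 28 in 100000 cells (4.47%). It was high on both sides of Gsx2, where the bin 1624 bp upstream (mm9 chr5:75468001-75470000) had 2.99, 4.71 and 4.4 RPKM. By contrast, both bins near Lhx3 stayed at or below 0.58 RPKM in all 3 libraries. No H3K9me3 library of 10000, 100000 or 1000000 cells reached 1 RPKM in any of the 41 bins. Few bins did so anywhere (5.09%, 4% and 2.98% of all bins), so 0 of 41 is near that share.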

How the data were processed

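The 48 genes and the lists compared with them were chosen with earlier results of these data known. Reads were aligned with BWA to mm9 and handled with SAMtools, per the submitters' processing notes. Their versions and the counting step are not stated in the labels. The deposited values are RPKM, per the file headers: H3K27me3 and RNA per transcript, H3K4me3 per 1 kb start-site window, and H3K9me3, H3K27me3 and panH3 per 2 kb bin. For panH3 the header names no unit, and RPKM was assumed. In the deposited ChIP RPKM tables, values of up to 40 reads were whole multiples of 1 read in 100% of cases, which gave each library's depth. The depth of the RNA library is unknown. 2 columns of another series were not used.

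For a gene with several transcripts or windows, the one highest on average in the libraries of a mark was used. Symbols in the H3K4me3 table are cut at a hyphen, so 40 genes were matched by name and 8 Nkx genes by position within 1 kb. Genes were named by rule: in each subfamily the 3 highest and the lowest for H3K27me3 and H3K4me3 in 100000 cells and for RNA, the 4 most extreme H3K27me3 ratios at either end, genes with RNA of at least 1 RPKM, genes with unlike transcripts, genes with a called bin, and genome neighbours. Further genes were named after their values were seen. Ratios used a pseudocount of 0.1 RPKM and a mean of at least 1 RPKM, which understates the change of low genes.

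H3K9me3 and panH3 bins were compared with limma 3.58.1 (R 4.3.3; robust, with trend, two-sided) over 93575 bins above 0 in at least 1 library, and checked on simulated data. The letters a and b do not pair the libraries, as far as the labels say. Alternatives were other thresholds, pseudocounts, filters and scalings, transcript means, plus-strand genes alone (chosen after seeing the data), voom weights, and leaving out each library. Other steps used Python 3.11.15 with pandas 2.3.3, scipy 1.17.1 and numpy 2.4.6.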

Additional observations from a re-analysis of the deposited data

How the results depend on the processing

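Of the counts recomputed, 66 stayed within 1.5 times the value in the report and 31 moved further. With 2 RPKM of H3K27me3 as the threshold, 6 genes passed in 1000 cells, 2 of them on the plus strand. Genes more than 1.5-fold lower in 1000 than in 100000 cells numbered 11 with a pseudocount of 1 RPKM (4 on the plus strand), and at 2-fold there were 3 (0 on the plus strand). Without the filter on low values, 1 gene was more than 1.5-fold higher in 10000 than in 100000 cells. H3K4me3 of at least 2 RPKM was found in 30, 34 and 21 genes in 5000, 10000 and 100000 cells. The shares over all genes at that threshold were 50.4%, 53.4% and 43.6%. At least 10 RPKM was found in 2, 7 and 0 genes, against 25.6%, 39.1% and 3.73% of all genes. Averaging over windows gave 6 genes in 5000 cells, and median scaling gave 2 in 5000 cells and 9 in 10000 cells. Both marks were found in 20 genes (3.83% of genes) with 2 RPKM of H3K4me3, 7 of them on the plus strand (5.88% of plus-strand genes). With 10 RPKM they were found in 0 genes, and with means over transcripts in 1. RNA of at least 0.1 RPKM was found in 17 genes and of at least 0.5 RPKM in 5. Counts given here without a share over all genes show the effect of the setting only. They do not measure how these genes differ from others.

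Of the 7 bins, H3K9me3 was lower than panH3 in 2 to 4 as each library was left out, the 2 being without panH3 b, and higher in 0 or 1. It was lower in 1 of the bins within 1 kb of a start site and in 13 of those within 10 kb. The Six3 bin was called higher with a pseudocount of 1 RPKM, with centring, with no filter, with voom weights and without H3K9me3 a. The 1 higher bin within 10 kb is another, 9933 bp from Dlx5. With the letters a and b as a replicate block, 4 bins were lower and 0 higher. The deviations of a and b did not go together (correlation -0.00955), so the block is no sign of pairing. The log2 difference turned in sign at Gsx2 with centring (0.026) and at Nkx6-1 without H3K9me3 b (-0.15, the lowest as each library was left out, with 0.29 the highest). The Irx4 call was also lost with centring and with no filter, and the adjusted p of Six3 ran from 0.0134 to 0.255 over 12 settings in limma, the reported one included. The causes were not tested. Each H3K27me3, H3K4me3 and RNA value rests on 1 library. In the H3K4me3 libraries of 5000 and 10000 cells, 1.86 and 1.07 M reads leave most start sites with fewer than 10 reads. Of the recomputed ratios of single genes, 293 stayed on the same side of the 1.5-fold line and 35 crossed it. Shifts in size that did not cross it are not counted.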
